A study of Homo sapiens with 6 samples.

Results

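The genes described here are those of the ATF4 response with enzymes of amino acid synthesis, folate one-carbon metabolism and tRNA charging. ATF4 is known to control many of these enzymes, but not every listed gene need be its target. The genes were chosen as the rows of the deposited count table whose symbol is on a fixed list of 40 names. All 40 were found among 26485 symbols. Bulk RNA sequencing was done on the human insulin-secreting beta cell line EndoC-βH1, in 3 libraries labelled sgZHX3-3 (genotype label ZHX3 KO) and 3 labelled Empty (genotype label WT). Both groups received lentiCRISPRv2, a lentivirus bearing Cas9 and a drug resistance gene, and were grown as stable lines after antibiotic selection. In the sgZHX3-3 group the vector held a single guide against the first coding exon of ZHX3, a zinc-finger and homeobox repressor, and in the Empty group it held none. Whether the biological replicates were separately made lines or repeat cultures is not stated, so SDs and p-values may measure only the spread between cultures. As there was a single guide, loss of ZHX3 and any other action of the guide cannot be told apart.

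ATF4 is a transcription factor whose protein is made when eIF2 is phosphorylated, by PERK under endoplasmic reticulum (ER) stress, by GCN2 when amino acids are short, by PKR or by HRI. It then switches on amino acid synthesis and uptake, tRNA synthetases, and feedback genes that restore or restrain translation. Beta cells depend on this pathway because of their heavy load of proinsulin synthesis. ATF4 is controlled largely at translation, so the level of its RNA is only a partial view of its activity.

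The libraries held 45101454 to 61051884 counts. RNA of ZHX3, the targeted gene, was at 167, 180 and 183 CPM (counts scaled to a common library size) in the sgZHX3-3 libraries. In the Empty libraries it was at 106, 110 and 101 CPM, so sgZHX3-3 was higher by 0.75 log2 units (adjusted p = 1.62e-05, edgeR). ZHX3 RNA was thus higher and not lower where the label names the guide, and every direction below rests on those labels. The RNA level cannot show whether the guide cut or ZHX3 protein was lost, as neither is measured by these counts. It therefore does not decide whether the labels or the knockout hold. The summed level of 8 beta cell markers ran from 8720 to 10200 CPM in sgZHX3-3 and from 7200 to 8900 CPM in Empty, against at most 11.4 CPM for 4 hormone genes of other islet cells. Exocrine and duct markers (4 genes) summed to 94.4 to 100 CPM in sgZHX3-3 and 81.8 to 91.9 CPM in Empty, and 4 markers of mesenchyme, endothelium and blood to at most 8.02 CPM. In bulk RNA, fewer cells of a type and less RNA per cell cannot be told apart. Among the Empty libraries, number 1 stood apart in stress genes and in some of the beta cell markers. The insulin gene INS was at 6500 CPM in Empty 1, 5260 CPM in Empty 2 and 5210 CPM in Empty 3, against 5770, 6400 and 7120 CPM in sgZHX3-3. IAPP, PDX1, MAFA and NKX6-1 were also highest of the Empty libraries in Empty 1. SLC30A8 was lowest there, and ABCC8 and G6PC2 lay between Empty 2 and Empty 3. HSPA1A, a heat-inducible chaperone, was at 90.8 CPM in Empty 1, 186 CPM in Empty 2 and 240 CPM in Empty 3, against 68.0 to 77.2 CPM in sgZHX3-3. NQO1, a target of the oxidative stress factor NRF2, was at 75.1, 158 and 172 CPM in the same Empty libraries, against 30.5 to 42.8 CPM in sgZHX3-3. Results are therefore also given with Empty 1 as the sole Empty library, where its spread is taken to be that of the sgZHX3-3 libraries.

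ATF4 binds a composite element with C/EBP partners, often written TGATGNAA. Promoter windows of 300 bases (250 before and 50 after the annotated start) were found in RefSeq (GRCh38.p14) for 30 of the 40 members. The element, on either strand, was in 10 of these 30 windows (33.3%), against 3.62% of 35116 windows of all genes and 2.07% of 18050 windows matched to tested genes. For each member only the first listed window was searched, whereas both wider sets count every listed window of a gene. A member without the element may hold it at another annotated start. The members were listed as ATF4-linked, so this share is a description and no independent finding. In 8 of the 10 windows the element read TGATGCAA. Only MTHFD1L among the called members had it in the window searched, although just 3 higher members had a window at all. The sites below are shown with 10 bases on either side, read so that the element (capitals) is on the printed strand. Apart from MTHFD1L they were chosen after their values were seen. ASNS and ATF3 add the other spellings, while CHAC1 and AARS read TGATGCAA as MTHFD1L does. PPP1R15B, CARS, NARS, MARS and IARS, which were not called, also held TGATGCAA and are not printed.
MTHFD1L: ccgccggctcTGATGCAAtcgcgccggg
CHAC1: ctggcaggagTGATGCAAcggcagggga
AARS: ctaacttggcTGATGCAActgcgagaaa
ASNS: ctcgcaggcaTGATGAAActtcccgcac
ATF3: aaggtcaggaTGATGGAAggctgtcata
The MTHFD1L site lies at chr6:150866347-150866374 on the plus strand. That of CHAC1 is at chr15:40953252-40953279 (minus strand), and that of AARS at chr16:70289676-70289703 (plus strand). The ASNS site, the known nutrient-sensing element of that promoter, is at chr7:97872459-97872486 (minus strand), and the ATF3 site at chr1:212565206-212565233 (plus strand). The whole MTHFD1L window, chr6:150866236-150866535 on the plus strand and printed next, is the only one of a called member with the element.
MTHFD1L: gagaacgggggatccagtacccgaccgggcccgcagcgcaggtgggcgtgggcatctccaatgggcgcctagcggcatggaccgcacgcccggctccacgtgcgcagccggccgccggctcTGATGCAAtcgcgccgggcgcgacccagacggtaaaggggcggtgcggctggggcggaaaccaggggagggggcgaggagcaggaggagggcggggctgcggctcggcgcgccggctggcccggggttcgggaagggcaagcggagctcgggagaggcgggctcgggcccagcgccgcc
CCAAT, the box bound by NF-Y, a factor known to associate with ZHX proteins, was on either strand in 21 of 30 member windows (70.0%), against 34.6% of all windows. It was in all 3 windows of higher members, in 18 of 26 windows of members that were not called, and in 0 of 1 of lower members. As with the ATF4 element, this share is a description and no independent finding, and it rests on the first listed window of each member. These matches describe letters in a window and were not tests of binding.

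Of the 40 members, 39 passed the filter on low counts and were tested. In the sgZHX3-3 libraries 7 were higher, namely PYCR1, DDIT4, EIF4EBP1, PHGDH, MTHFD1L, YARS and SHMT2, and 1 was lower, PPP1R15A (edgeR's quasi-likelihood test, adjusted p below 0.05). These are 17.9% and 2.56% of the tested members, beside 7.11% and 4.98% of all 16199 tested genes. The changes were small: the higher members rose by 0.18 to 0.27 log2 units, PPP1R15A fell by 0.41, and 37 of 39 members lay within 0.3 of no change. The median log2 fold change was 0.05 over the tested members and 0 over all tested genes. The groups did not overlap for 19 members (48.7%), 15 above and 4 below, beside 32.0% of all tested genes. These calls did not hold in every fit: no member was called by edgeR without Empty 2, without Empty 3, without sgZHX3-3 library 2, or with Empty 1 as the sole Empty library. Without Empty 2, without Empty 3 and without sgZHX3-3 library 2, 14, 9 and 8 members were higher at an unadjusted p below 0.05 (edgeR). In the same fits 2, 1 and 4 were lower. With all libraries 15 members were higher and 3 lower at that threshold, beside 14.5% and 13.6% of all tested genes. These shares of all genes were not computed for the other fits, so the counts there have no background beside them. With libraries scaled by their totals alone, 3 members were higher and 2 lower, so 60% of the calls were higher, against 87.5% with the TMM factors (trimmed mean of M-values) used elsewhere. Of the 31 members that were not called, all but ATF3 had a 95% interval within 0.5 log2 units of no change.

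**Figure D1:**
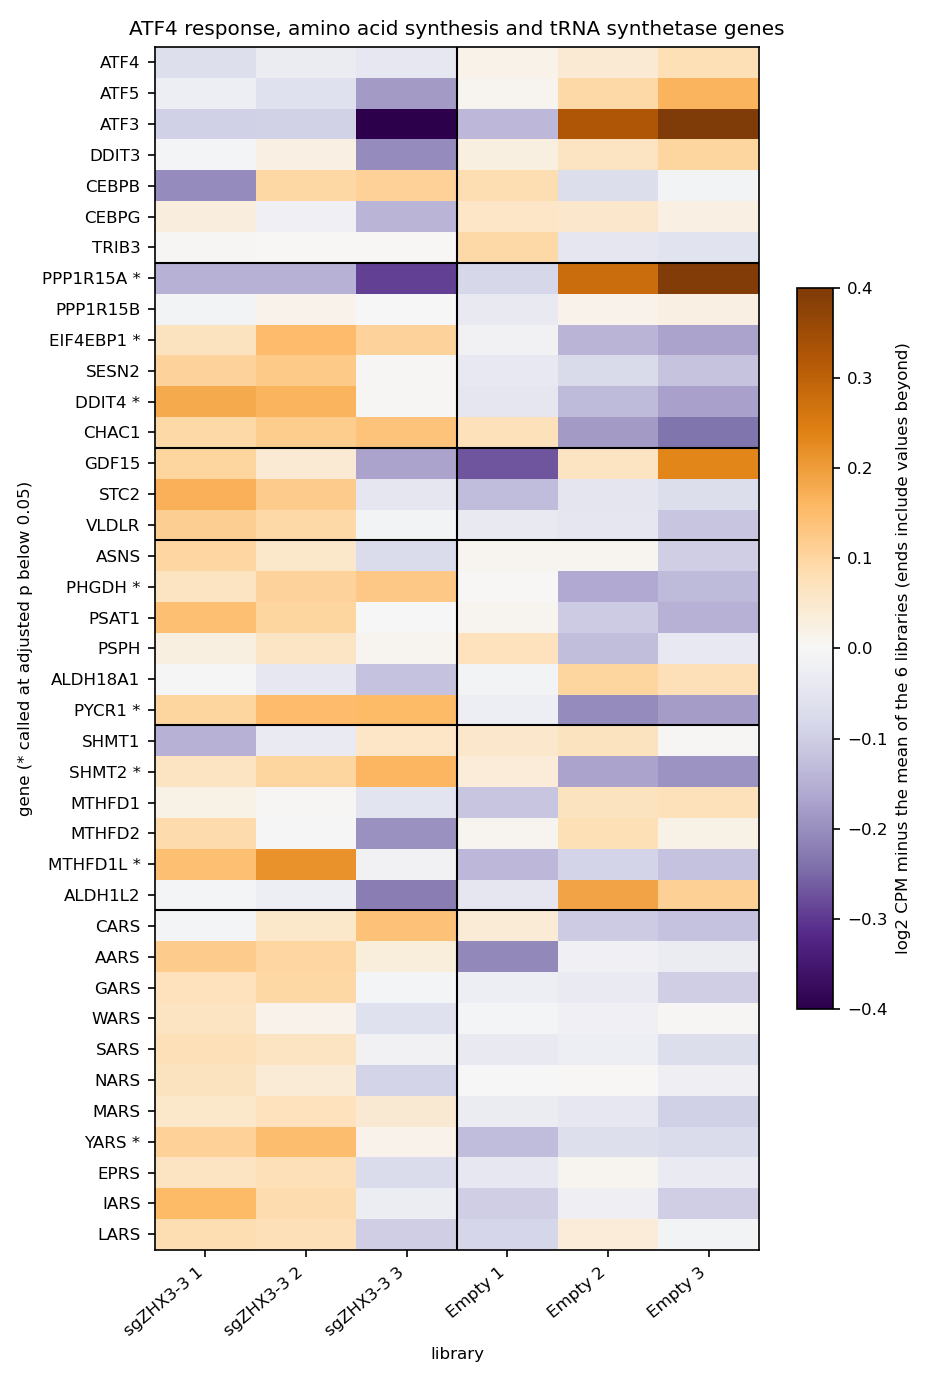
Heat map of log2 CPM of the 39 tested members (rows, in 6 role groups split by lines) in each library (columns, sgZHX3-3 left and Empty right), as the difference from the mean of the 6 libraries; colours stop at 0.4 on either side. ATF3 and PPP1R15A stand out in Empty 2 and 3, and sgZHX3-3 library 3 is the lowest of its group for 28 of 39 members.

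**Figure D2:**
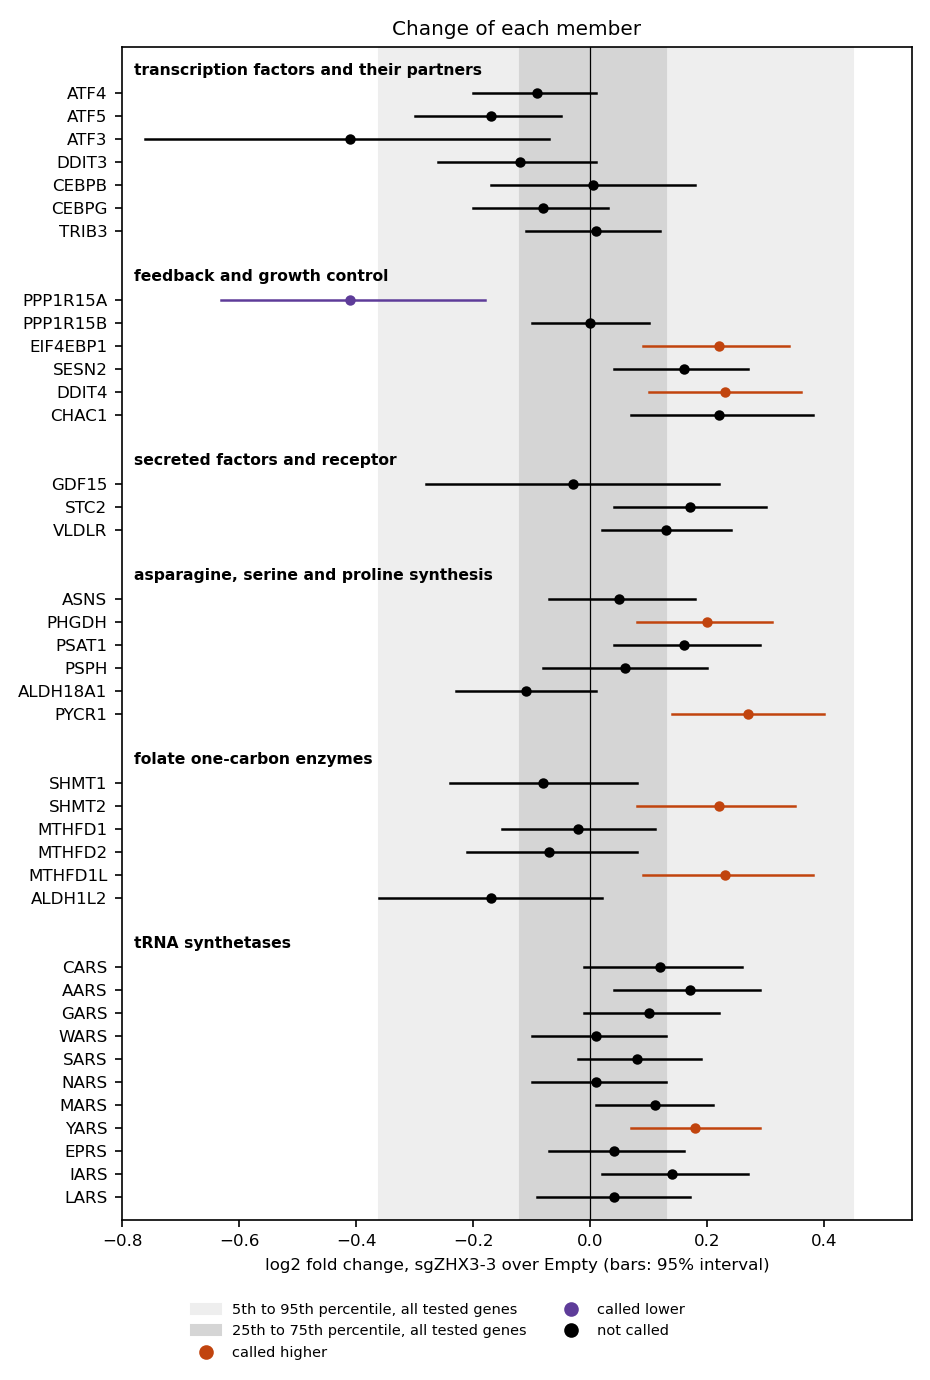
Log2 fold change of each tested member, sgZHX3-3 over Empty, with its 95% interval, grouped by role; shading gives the spread of all tested genes (25th to 75th percentile from −0.12 to 0.13). Of 39 members 7 are called higher and 1 lower, and all 11 synthetases on the list lie above 0 (WARS and NARS below 0 with library totals alone).

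Among the transcription factors of the response and their partners, 5 of 7 tested had a log2 fold change below 0 (TRIB3 and CEBPB too with library totals alone), and none passed (edgeR, DESeq2 and limma-voom each called 0; 2, ATF5 and ATF3, were lower at an unadjusted p below 0.05). Over all tested genes 13.6% were lower at that threshold. The median of these factors was −0.09. ATF4 itself was at 803, 823 and 816 CPM in sgZHX3-3 and 850, 865 and 888 CPM in Empty. The groups did not overlap, yet the difference of −0.09 (SE 0.0479, 95% interval −0.20 to 0.01) did not pass (edgeR adjusted p = 0.231). ATF5, a related factor that is also controlled by translation, was at 656, 641 and 588 CPM in sgZHX3-3 and 670, 711 and 747 CPM in Empty, a difference of −0.17 (adjusted p = 0.0723). It passed with library totals alone (0.0379) and without Empty 1 (0.0166). The pro-apoptotic factor DDIT3, also called CHOP, was at 89.3, 91.2 and 78.0 CPM in sgZHX3-3 and 91.5, 93.9 and 96.4 CPM in Empty. Its difference was −0.12 (adjusted p = 0.227), again with no overlap. Exons of DDIT3 are covered for 31.6% by genes on the other strand, MARS among them, and those of ATF5 for 23.7%. Whether counting used strand is unknown, so both counts are uncertain. ATF4 lies on chromosome 22 from 39519695 to 39522685 in GRCh38, and 4 pseudogenes carry its name, whose reads may be shared with it.

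ATF3, a stress-induced repressor, had the largest standard error of the factors (0.149). It was at 63.9, 64.1 and 51.3 CPM in sgZHX3-3 and 62.1, 85.5 and 90.9 CPM in Empty. Empty 1 thus lay among the sgZHX3-3 libraries, while Empty 2 and 3 were above them. The difference was −0.41 with a 95% interval from −0.76 to −0.07 (adjusted p = 0.119); without Empty 1 it was −0.56 (0.000612), and against Empty 1 alone −0.06 (0.876). The same pair of libraries had the highest HSPA1A and NQO1, and the part of that stress signal in ATF3 was not tested. CEBPB, a partner of ATF4, was at 100 ± 11.9 CPM in sgZHX3-3 and 100 ± 5.26 CPM in Empty (SD, n = 3 each). CEBPG, another partner, was at 286 ± 17.5 CPM in sgZHX3-3 and 303 ± 3.91 CPM in Empty (SD, n = 3 each), a difference of −0.08 (adjusted p = 0.340). TRIB3, a pseudokinase that ATF4 and CHOP induce and that restrains both, was at 529, 528 and 528 CPM in sgZHX3-3 and 562, 511 and 507 CPM in Empty. The 3 sgZHX3-3 libraries lay within the range of the Empty ones (log2 fold change 0.01, 95% interval −0.11 to 0.12). NUPR1, a stress-induced chromatin protein, is listed at 0 counts in all 6 libraries, which by 3 counts allows up to 0.0498 to 0.0671 CPM, and was not tested.

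Feedback and growth-control genes held both directions: of 6 tested, EIF4EBP1 and DDIT4 rose and PPP1R15A fell, with a median of 0.19. PPP1R15A, or GADD34, is the stress-induced subunit that brings a phosphatase to eIF2 and ends the block of translation. It was at 180, 179 and 162 CPM in sgZHX3-3 and 188, 241 and 261 CPM in Empty, a log2 fold change of −0.41 (SE 0.103, edgeR adjusted p = 0.0315). All sgZHX3-3 libraries were below all Empty ones, but Empty 1 was only just above them. Without Empty 1 the change was −0.53 (7.1e-05), and against Empty 1 alone it was −0.11 (0.568); over the fits that each left out 1 library adjusted p ran from 7.1e-05 to 0.134. Its order in the Empty libraries was that of HSPA1A and NQO1, whose part was not tested. PPP1R15B, the constitutive counterpart, was at 229, 233 and 230 CPM in sgZHX3-3 and 225, 233 and 234 CPM in Empty, with a 95% interval of the difference from −0.10 to 0.10. Whether the paralogs differ from each other in their change was not tested. PPP1R15A lies on chromosome 19 from 48872392 to 48876057.

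EIF4EBP1 encodes a repressor of cap-dependent translation that mTORC1 switches off. Its RNA was at 121, 128 and 124 CPM in sgZHX3-3 and 114, 105 and 103 CPM in Empty, a rise of 0.22 (SE 0.0575, edgeR adjusted p = 0.0288). DDIT4, or REDD1, an inhibitor of mTORC1, was at 246, 243 and 218 CPM in sgZHX3-3 and 211, 198 and 193 CPM in Empty, a rise of 0.23 (SE 0.0599, adjusted p = 0.0252). In both genes every sgZHX3-3 library was above every Empty library. Over the fits without 1 library, adjusted p ran from 0.00314 to 0.153 for EIF4EBP1 and from 0.00573 to 0.131 for DDIT4. Against Empty 1 alone the values were 0.12 for EIF4EBP1 (adjusted p = 0.490) and 0.16 for DDIT4 (0.399). CHAC1, which breaks down glutathione, was at 141, 143 and 145 CPM in sgZHX3-3 and 139, 116 and 112 CPM in Empty, a difference of 0.22 (adjusted p = 0.0616). Its groups did not overlap, with Empty 1 close to the sgZHX3-3 libraries. CHAC1 passed with DESeq2 (0.0316), without an expression filter (0.0391), with the gene span trend removed (0.0446) and without Empty 1 (0.000769). SESN2, a leucine sensor that restrains mTORC1, was at 142, 144 and 132 CPM in sgZHX3-3 and 128, 125 and 122 CPM in Empty (0.16, adjusted p = 0.0799). It passed without Empty 1 (0.0314), without sgZHX3-3 library 3 (0.0428) and with the gene span trend removed (0.0444). EIF4EBP1 lies on chromosome 8 from 38030341 to 38060365 and DDIT4 on chromosome 10 from 72273920 to 72276036.

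**Figure D3:**
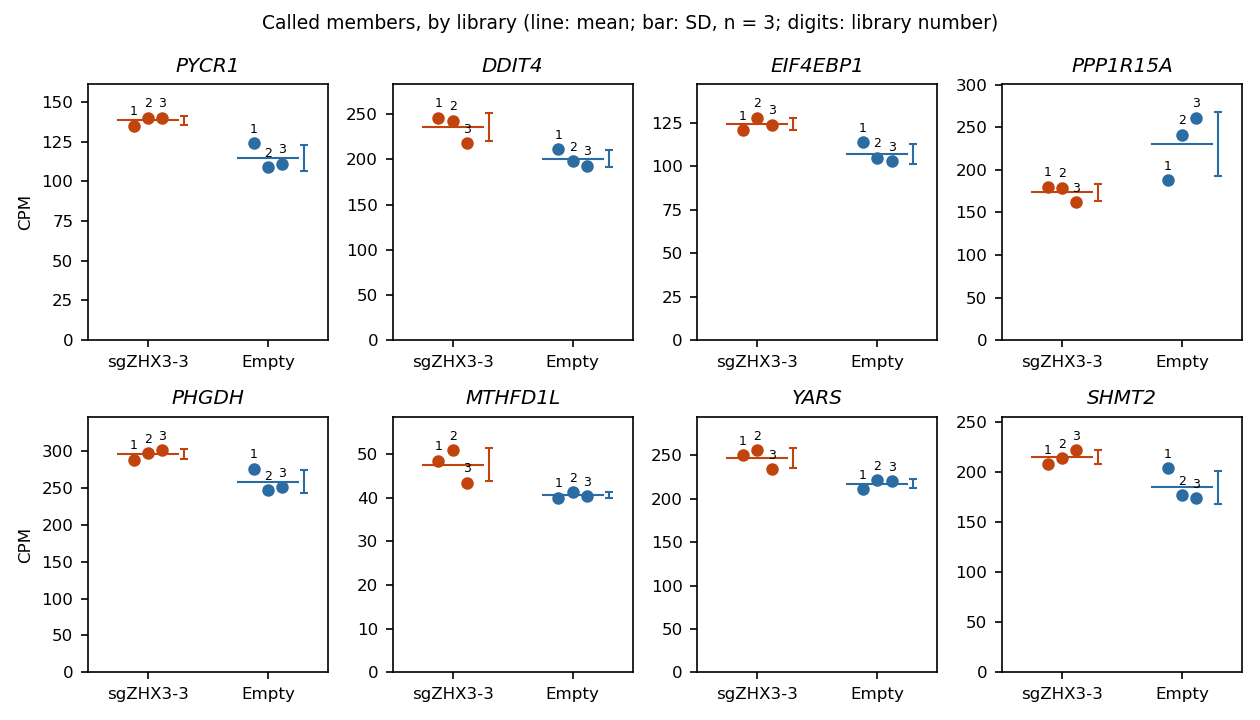
CPM of the 8 called members in each library (points, numbered by library; axes start at 0), sgZHX3-3 left and Empty right, with the mean (line) and SD (bar, n = 3). The groups do not overlap in any of the 8, and in PPP1R15A the Empty libraries range from 188 to 261 CPM.

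The secreted factors and the receptor showed small differences, none called (edgeR, DESeq2 and limma-voom each called 0 of 3). At an unadjusted p below 0.05 (edgeR) 2 were higher, beside 14.5% of all tested genes. GDF15, a stress hormone, was at 29.2, 28.0 and 24.2 CPM in sgZHX3-3 and 22.6, 28.5 and 32.0 CPM in Empty, where the groups overlapped fully (−0.03, adjusted p = 0.894). STC2, a secreted glycoprotein, was at 340, 328 and 293 CPM in sgZHX3-3 and 276, 292 and 288 CPM in Empty (0.17, adjusted p = 0.0917). Of 16 alternatives STC2 passed in 1, without sgZHX3-3 library 3, the lowest of its group (0.0200). VLDLR, a lipoprotein receptor, was at 322, 318 and 296 CPM in sgZHX3-3 and 291, 289 and 275 CPM in Empty (0.13, adjusted p = 0.124).

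Among the enzymes that make asparagine, serine and proline, PYCR1 and PHGDH rose and the other 4 of 6 did not pass, with a median of 0.11. PYCR1, the mitochondrial enzyme of the last step to proline, had the smallest adjusted p of all members. It was at 135, 140 and 140 CPM in sgZHX3-3 and 124, 109 and 111 CPM in Empty, a rise of 0.27 (SE 0.0590, edgeR adjusted p = 0.0119), or 1.21-fold. The sgZHX3-3 libraries lay close together and above all Empty ones. Without 1 library its adjusted p ran from 0.000703 to 0.0752, and against Empty 1 alone the difference was 0.16 (0.357). PYCR1 shares 408 exon bases with MYADML2 on the same strand, so its count is uncertain. ALDH18A1, the enzyme of the first step to proline, was at 93.4, 91.1 and 86.2 CPM in sgZHX3-3 and 93.0, 101 and 99 CPM in Empty (−0.11, adjusted p = 0.214). PYCRL, a paralog of PYCR1, was at −0.19 (adjusted p = 0.150).

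PHGDH catalyses the first step from glycolysis to serine. It was at 288, 297 and 301 CPM in sgZHX3-3 and 276, 247 and 251 CPM in Empty, a rise of 0.20 (SE 0.0549, edgeR adjusted p = 0.0360). Its adjusted p ran from 0.00317 to 0.162 without 1 library and was 0.553 against Empty 1 alone. PSAT1, the next enzyme, was at 724, 701 and 654 CPM in sgZHX3-3 and 659, 609 and 590 CPM in Empty (0.16, adjusted p = 0.0883), so the groups overlapped at sgZHX3-3 library 3 and Empty 1. It passed without Empty 1 (0.0135). PSPH, the last enzyme, was at 39.9 ± 0.719 CPM in sgZHX3-3 and 38.2 ± 2.65 CPM in Empty (SD, n = 3 each), a difference of 0.06 (adjusted p = 0.574). ASNS, asparagine synthetase and a classic ATF4 target, was at 734, 713 and 652 CPM in sgZHX3-3 and 690, 692 and 640 CPM in Empty. Its groups overlapped, and the 95% interval of the log2 difference was −0.07 to 0.18 (adjusted p = 0.587). PSAT1 and ASNS each have 4 pseudogenes by name. PYCR1 lies on chromosome 17 from 81932384 to 81942412 and PHGDH on chromosome 1 from 119648411 to 119744226.

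Of 6 folate one-carbon enzymes, SHMT2 and MTHFD1L rose and 4 did not pass, with a median of −0.04. Both are mitochondrial: SHMT2 splits serine into glycine and a one-carbon unit, and MTHFD1L releases formate. SHMT2 was at 208, 214 and 222 CPM in sgZHX3-3 and 204, 177 and 174 CPM in Empty, a rise of 0.22 (SE 0.0641, edgeR adjusted p = 0.0458). Empty 1 was just below the lowest sgZHX3-3 library, and against Empty 1 alone the difference was 0.08 (adjusted p = 0.689, with 0.00162 to 0.206 without 1 library). MTHFD1L was at 48.5, 50.9 and 43.4 CPM in sgZHX3-3 and 40, 41.3 and 40.4 CPM in Empty, a rise of 0.23 (SE 0.0669, adjusted p = 0.0404). Here the 3 Empty libraries were alike, and against Empty 1 alone the difference was 0.25 (adjusted p = 0.290). MTHFD1L spans a long stretch of chromosome 6, from 150865549 to 151101887, and with the trend of each library on gene span removed its difference was 0.14 (adjusted p = 0.147). Without 1 library its adjusted p ran from 0.0122 to 0.209. SHMT2 lies on chromosome 12 from 57229327 to 57234935.

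The other one-carbon members were near their Empty level. MTHFD2, the mitochondrial dehydrogenase between SHMT2 and MTHFD1L, was at 415, 389 and 340 CPM in sgZHX3-3 and 393, 413 and 395 CPM in Empty (−0.07, 95% interval −0.21 to 0.08). Its exons are covered for 27.2% by SLC4A5 on the other strand, and 7 pseudogenes carry its name. The cytosolic enzymes were at −0.08 for SHMT1 (95% interval −0.24 to 0.08) and −0.02 for MTHFD1 (95% interval −0.15 to 0.11). ALDH1L2, which oxidises mitochondrial formyl-folate, was at 17, 16.8 and 14.7 CPM in sgZHX3-3 and 16.6, 19.5 and 18.5 CPM in Empty (−0.17, adjusted p = 0.215). Whether mitochondrial and cytosolic enzymes differ in their change was not tested.

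All 11 tRNA synthetases on the list had a log2 fold change above 0, from 0.01 to 0.18 with a median of 0.10, but YARS alone was called. The sign held for WARS and NARS only in part, since both were at −0.02 with library totals alone. The 25th and 75th percentiles of single genes, over all tested genes, were −0.12 and 0.13. A median over 11 genes varies less than single genes do, so these percentiles cannot show whether the list is unusual. The list holds only part of the cytosolic synthetases. Of 13 other cytosolic synthetase and scaffold genes, 7 were below 0 and 6 above. At an unadjusted p below 0.05 (edgeR), 3 of them were lower and 1 was higher, beside 13.6% and 14.5% of all tested genes. YARS, the tyrosyl-tRNA synthetase, was at 250, 256 and 234 CPM in sgZHX3-3 and 211, 221 and 220 CPM in Empty, a rise of 0.18 (SE 0.0526, edgeR adjusted p = 0.0415). Every sgZHX3-3 library was above every Empty one. The difference was 0.22 against Empty 1 alone (adjusted p = 0.197), and adjusted p ran from 0.0223 to 0.209 without 1 library. AARS, for alanine, was at 367, 361 and 346 CPM in sgZHX3-3 and 293, 334 and 331 CPM in Empty (0.17, adjusted p = 0.0852). It had its lowest level in Empty 1, unlike PYCR1 or PHGDH, and passed with the gene span trend removed (0.0444). IARS, for isoleucine, was at 505, 482 and 446 CPM in sgZHX3-3 and 424, 447 and 424 CPM in Empty (0.14, adjusted p = 0.113). MARS, for methionine, was at 409, 413 and 406 CPM in sgZHX3-3 and 386, 383 and 368 CPM in Empty (0.11, adjusted p = 0.144). The groups did not overlap for MARS and did so narrowly for IARS, which passed without sgZHX3-3 library 3 (0.0412). CARS, for cysteine, passed without Empty 1 (0.18, adjusted p = 0.0412). CARS, GARS (glycine) and SARS (serine) were at 0.12, 0.10 and 0.08, and EPRS (glutamate and proline), LARS (leucine), NARS (asparagine) and WARS (tryptophan) lay between 0.01 and 0.04. YARS lies on chromosome 1 from 32775237 to 32818153.

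**Figure D4:**
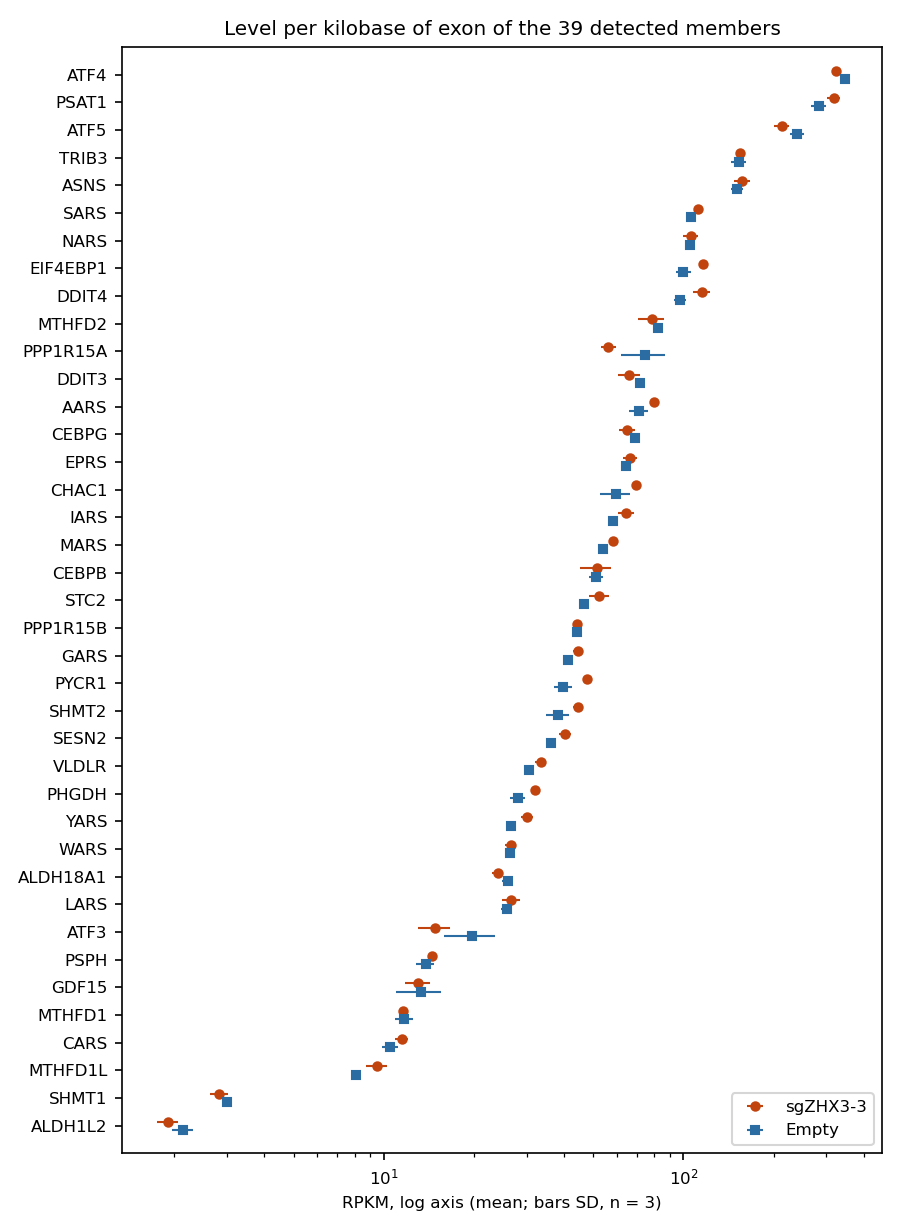
Level of the 39 detected members as RPKM (CPM per kilobase of merged exon; log axis), mean with SD (n = 3), sgZHX3-3 as circles above Empty as squares. ATF4 is highest at 324 RPKM in sgZHX3-3 and 345 RPKM in Empty, and ALDH1L2 lowest at 1.90 RPKM in sgZHX3-3 and 2.14 RPKM in Empty.

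Levels between genes were compared per kilobase of merged exon (RPKM). ATF4 was the highest member, at 324 ± 3.98 RPKM in sgZHX3-3 and 345 ± 7.60 RPKM in Empty (SD, n = 3 each). PSAT1 came next at 317 ± 16.3 RPKM in sgZHX3-3 and 283 ± 16.2 RPKM in Empty (SD, n = 3 each), so in sgZHX3-3 the SDs of the leading pair overlapped. ATF5 followed at 213 ± 12.2 RPKM in sgZHX3-3 and 240 ± 13.0 RPKM in Empty. ASNS (157 ± 9.63 RPKM in sgZHX3-3, 151 ± 6.58 RPKM in Empty) and TRIB3 (154 ± 0.198 RPKM in sgZHX3-3, 153 ± 8.96 RPKM in Empty) did not differ beyond their SDs. At the low end were MTHFD1L (9.49 ± 0.763 RPKM in sgZHX3-3, 8.08 ± 0.135 RPKM in Empty), SHMT1 (2.83 RPKM in sgZHX3-3, 3.00 RPKM in Empty) and ALDH1L2 (1.90 RPKM in sgZHX3-3, 2.14 RPKM in Empty). The mitochondrial SHMT2, at 44.4 ± 1.47 RPKM in sgZHX3-3 and 38.2 ± 3.42 RPKM in Empty, was far above the cytosolic SHMT1 in both groups. Merged exons include sequence of rare transcripts, which lowers the values of genes with many.

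Other genes of the pathway moved in both directions. Of 22 tested ATF4-linked genes and amino acid transporters outside the members, 5 were higher, with a median of 0.12. They were the glycine transporter SLC6A9 (0.40, edgeR adjusted p = 0.00248), the mitochondrial protease LONP1 (0.25, 0.00484), the cationic amino acid transporter SLC7A1 (0.20, 0.0149), the growth factor VEGFA (0.28, 0.0207) and the transsulfuration enzyme CBS (0.30, 0.0261). The count was 2 without Empty 2, without Empty 3 or without sgZHX3-3 library 2, 8 without Empty 1, and 0 against Empty 1 alone. SLC6A9 and LONP1 were called in each of the 6 fits without 1 library, SLC7A1 in 3 of them (adjusted p up to 0.0892) and VEGFA in 2 (up to 0.116). Against Empty 1 alone adjusted p was 0.147 for SLC6A9, 0.132 for LONP1, 0.179 for SLC7A1 and 0.503 for VEGFA. Of 16 genes for eIF2, its kinases and eIF2B, EIF2AK3 (PERK) fell by 0.36 (0.00484) and GCN1, the activator of GCN2, rose by 0.22 (0.0177). EIF2AK3 was at 45.3, 45.8 and 41.4 CPM in sgZHX3-3 and 52.2, 58.2 and 59.9 CPM in Empty. It was called in each fit without 1 library, whereas GCN1 was not called without Empty 2, without Empty 3 or without sgZHX3-3 library 2 (adjusted p up to 0.0835). Against Empty 1 alone neither was called (EIF2AK3 −0.24, adjusted p = 0.245; GCN1 0.22, 0.226).

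Of 13 other cytosolic synthetase and scaffold genes, VARS (valine) rose by 0.38 (edgeR adjusted p = 0.00340) and the scaffold AIMP1 fell by 0.26 (0.0264), with a median of −0.08. VARS was called in each fit without 1 library, and AIMP1 in the 2 fits without Empty 1 or without sgZHX3-3 library 1 (up to 0.122 in the others). Against Empty 1 alone VARS was at 0.25 (adjusted p = 0.200) and AIMP1 at −0.18 (0.423). None of 20 mitochondrial synthetase genes was called by edgeR, DESeq2 or limma-voom, with a median of −0.01. At an unadjusted p below 0.05 (edgeR) 4 of them were higher, beside 14.5% of all tested genes. Among 24 other one-carbon, glycine and proline genes, FTCD, which feeds histidine carbon into folate, rose by 0.54 (0.00105). In that list 4 fell, among them ASNSD1 (−0.27, 0.0205), thymidylate synthase TYMS (−0.24, 0.0298) and the mitochondrial folate carrier SLC25A32 (−0.22, 0.0306). TYMS is also a gene of DNA synthesis. FTCD was called in each fit without 1 library and against Empty 1 alone (0.69, adjusted p = 0.0105). The 4 lower calls became 1 without Empty 2, without Empty 3 or without sgZHX3-3 library 3, 2 without sgZHX3-3 library 2, and 0 against Empty 1 alone. Of 17 tested paralogs of members 2 rose, among them the factor CEBPA (0.27, 0.0424). Neither was called without Empty 2, without Empty 3, without sgZHX3-3 library 2 or 3, or against Empty 1 alone, where CEBPA was at 0.13 (0.591).

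Of 18 ER chaperones and genes of the other branches of the unfolded protein response, 9 were lower and 1, ERN1 (the sensor IRE1), was higher, with a median of −0.19. The lower calls were 5 without Empty 2, without Empty 3 or without sgZHX3-3 library 2, and 1 against Empty 1 alone. The count of higher genes was 1 without Empty 1 or without Empty 2, and 0 in the other 4 fits without 1 library and against Empty 1 alone. DNAJB9, a cochaperone of BiP, was at 224, 218 and 205 CPM in sgZHX3-3 and 276, 293 and 303 CPM in Empty (−0.43, edgeR adjusted p = 0.000497). It was called in each fit without 1 library and against Empty 1 alone (−0.35, adjusted p = 0.0455). DNAJC3, a cochaperone that also inhibits PERK (−0.39, 0.000636), the secreted ER factor MANF (−0.41, 0.00121) and CRELD2 (−0.40, 0.00194) fell as well. These 3 were called in each fit without 1 library but not against Empty 1 alone (adjusted p = 0.0527 for DNAJC3, 0.0666 for MANF and 0.0515 for CRELD2). Whether these genes differ from the members in their change was not tested. The NRF2 targets had a median of −1.16, with 10 of 11 lower. Their count was 4 without Empty 2, without sgZHX3-3 library 2 or without an expression filter, 5 without sgZHX3-3 library 1 or 3, and 5 against Empty 1 alone. The heat shock genes had a median of −0.40, with 1 of 11 lower by edgeR, the chaperone HSPA6. That count was 8 with DESeq2, 5 with limma-voom, 4 with library totals alone and 9 without Empty 1. It was 0 without Empty 2, without Empty 3, without sgZHX3-3 library 2 or 3, and against Empty 1 alone. Against Empty 1 alone the list medians were −0.16 for the ER genes, −0.59 for the NRF2 targets, −0.08 for the heat shock genes and 0.07 for the members.

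**Figure D5:**
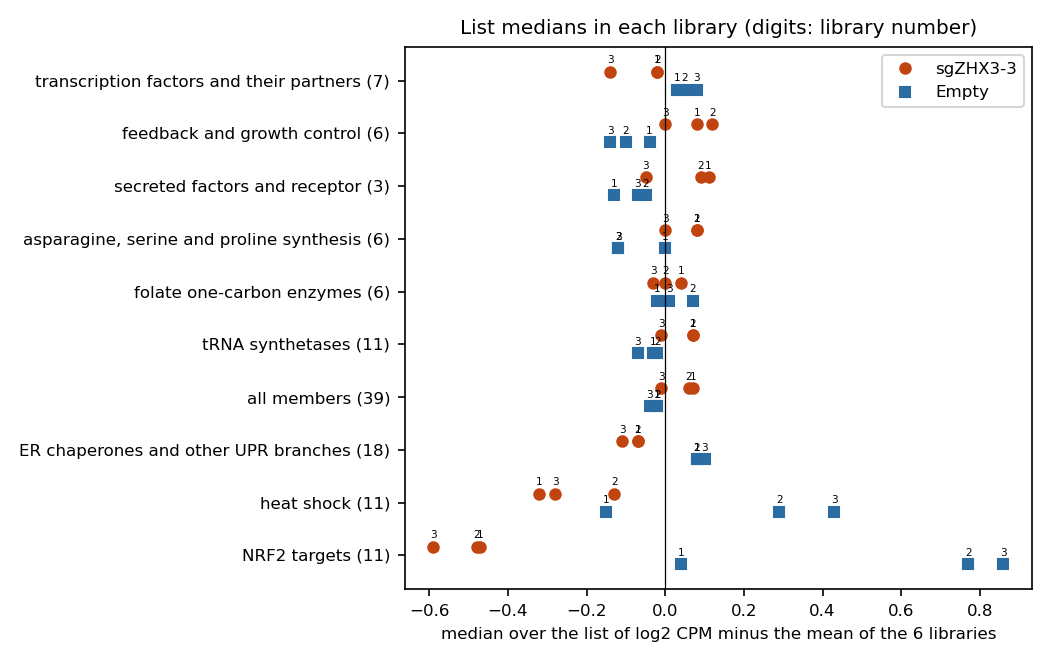
Median over each list (number of tested genes in brackets) of log2 CPM minus the mean of the 6 libraries, per library, with sgZHX3-3 as circles above Empty as squares. Empty 2 and 3 stand far to the right in NRF2 targets (0.77 and 0.86) and heat shock genes (0.29 and 0.43). The median of the 39 members stays between −0.04 and 0.07, but single members move both ways around it. In Empty 1, 2 and 3 PPP1R15A is at −0.08, 0.28 and 0.39, and PYCR1 at −0.02, −0.20 and −0.18 (not drawn here).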

How the data were processed

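Total RNA was extracted with a NucleoSpin kit and made into stranded NEBNext libraries, per the labels' protocols. The submitters' processing notes name STAR, featureCounts and hg38. No source used here gives their versions, the annotation, the strand setting or the handling of multiply matching reads. Per the file headers, the authors deposited unnormalised counts by gene symbol with a column for each library. All other values were computed from them.

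Genes were kept by filterByExpr (minimum count 10, minimum total 15), scaled by TMM (factors 0.984 to 1.02) and compared with edgeR's robust quasi-likelihood test, group as the only term, with Benjamini-Hochberg adjustment over 16199 genes at 0.05. The common biological coefficient of variation was 6.91%. Standard errors and 95% intervals come from the fold change and its F statistic. Lengths, coordinates and overlaps are from GENCODE release 29 (GRCh38), and promoter windows from RefSeq (GRCh38.p14). Software was edgeR 4.0.16 (R 4.3.3), DESeq2 1.42.0, limma 3.58.1, matplotlib 3.10.9 and Python 3.11.15. Alternatives were RLE factors, library totals, other expression filters, DESeq2, limma-voom, a replicate block, an offset for each library's trend on gene span, a threshold of 0.01, and fits without 1 library or without Empty 2 and 3. The procedure was also run on simulated counts, which held no difference between Empty 1 and the other Empty libraries. The changes planted there were larger than those of the higher members, so that run does not bear on their calls. Members, gene lists, tests and alternatives were chosen with earlier results of these data known. Named genes are all members, ZHX3, HSPA1A, NQO1, the beta cell markers, and up to 4 called genes with the smallest adjusted p per other list. CBS, SLC25A32, ERN1 and PYCRL lie outside this rule and were chosen after their values were seen. Some genes of the other lists are counted but not reported here by name.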

Additional observations from a re-analysis of the deposited data

How the results depend on the processing

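Of all genes, 1151 were higher and 807 lower with all libraries; the counts were 474 to 1792 and 184 to 1499 without 1 library, 209 and 40 against Empty 1 alone, and 467 and 194 at an adjusted p below 0.01. With library totals alone 1272 were lower and 904 higher, so 41.5% of calls were higher, against 58.8% with TMM. The labels do not say whether the replicate numbers pair the samples. The deviations of same-numbered libraries from their group means correlated at −0.14, 0.07 and −0.14. Those of differently numbered libraries correlated at −0.15 to 0.23. With 3 libraries per group these values cannot decide the question. With the replicate number as a block 516 genes were higher and 239 lower, and of the members 0 were higher and 0 lower (edgeR; 14 higher and 3 lower at an unadjusted p below 0.05).

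Of the members, 7 were higher and 1 lower with all libraries. RLE factors, a filter of 1 CPM in 3 libraries and limma-voom gave the same counts and the same 8 genes, and DESeq2 added CHAC1. Library totals alone gave 3 higher and 2 lower. Without 1 library 0 to 11 were higher and 0 to 3 lower, the most without Empty 1 (11 and 3); without sgZHX3-3 library 1 the counts were 2 and 0, and without its library 3 they were 7 and 0. Against Empty 1 alone, or at an adjusted p below 0.01, 0 were higher and 0 lower. PPP1R15A lost its call without an expression filter (8 higher, 0 lower) and with the gene span trend removed (7 higher, 0 lower), where 4 of the 7 were among the 8 called genes. In these alternatives no called member changed sign.

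Signs of members that were not called and lay near 0 did change. TRIB3 was at −0.03 with library totals alone, −0.02 to 0.06 without 1 library and −0.09 against Empty 1 alone, and PSPH at −0.04 against Empty 1 alone. Without 1 library MTHFD1 lay from −0.08 to 0.01 and MTHFD2 from −0.13 to 0.01, and MTHFD1 was at 0.11 against Empty 1 alone. CEBPB was at −0.03 with library totals alone, −0.00071 with the replicate block, −0.02 with the gene span trend removed, −0.05 to 0.10 without 1 library and −0.07 against Empty 1 alone. PPP1R15B was at 0.00021 with the filter of 1 CPM, 0.0022 with RLE factors and with DESeq2, 0.01 with the gene span trend removed, −0.02 to 0.01 without 1 library and 0.04 against Empty 1 alone. GDF15 lay from −0.15 to 0.09 without 1 library and was at 0.27 against Empty 1 alone. WARS and NARS were at −0.02 with library totals alone, and without 1 library lay from −0.02 to 0.05 (WARS) and to 0.06 (NARS). The cause of these changes was not tested. Every tested member had at least 761 counts in each library. NUPR1, listed at 0 counts, was not tested.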
